A study of Homo sapiens with 6 samples.

Results

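Glutathione transferases are enzymes that join the tripeptide glutathione to reactive or foreign compounds, or reduce them with it. The 10 genes GSTP1, GSTM1, GSTM2, GSTM3, GSTM4, GSTA4, GSTO1, GSTK1, MGST1 and MGST3 were chosen by name in the gene name column of the expression table, and each had exactly 1 row among its 58174 genes. The study compared 3 samples transfected with miR-27a-3p mimics with 3 samples transfected with a negative control (NC), all of the cell line labelled Huh-7 and all taken 48 h after lipid-mediated transfection. Mimics are synthetic RNAs that imitate a mature microRNA. The series title concerns cisplatin sensitivity of hepatocellular carcinoma, while the labels name no drug treatment, so both groups share the same line, medium and transfection reagent and differ by the transfected RNA. Expression was given as FPKM, a fragment number divided by gene length and by library size. All samples come from 1 line, and the labels do not say whether they were separate cultures, so p-values reflect sample-to-sample spread that may be purely technical.

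The soluble transferases fall into classes named alpha, kappa, mu, omega, pi, theta and zeta, and a separate family sits in membranes. Conjugation to glutathione makes electrophiles such as lipid peroxidation products more soluble, after which transporters export the conjugates and peptidases trim them towards mercapturic acids. In liver the alpha class is the abundant soluble class of hepatocytes, while the pi class is low in hepatocytes and is often raised in tumours. Platinum drugs are among the compounds that glutathione can bind.

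The cells did not show the defining expression of the labelled origin. In every sample 9 of 10 hepatocyte and liver carcinoma markers were under 1 FPKM, and the secreted proteins albumin (ALB), alpha-fetoprotein (AFP), APOA1, APOA2, APOB, TTR and FGB reached at most 0.041 FPKM. The 10 markers together summed to 0.912 to 1.27 FPKM in mimic samples and 1.08 to 2.11 FPKM in NC samples. Of 4 markers of basal epithelium, KRT5, KRT14 and TP63 were under 1 FPKM in every sample, while KRT17 was at 439.9, 296.3 and 265.5 FPKM in mimic samples 1, 2 and 3 and at 501.7, 429.5 and 428.7 FPKM in NC samples 1, 2 and 3. Of 6 markers of other epithelium, EPCAM and CDH1 were under 1 FPKM in every sample. At an unadjusted p under 0.05 by limma, 3 of the 4 tested were higher and 0 lower. After adjustment 2 were called higher and 0 lower, against 12.0% and 39.6% of all 14439 tested genes. These were KRT8, at 606.6, 467.9 and 441.6 FPKM in mimic samples 1, 2 and 3 against 255.6, 229.5 and 250.7 FPKM in NC samples 1, 2 and 3 (log2 fold change 1.03, adjusted p = 0.00139 by limma), and KRT19 (1.28, adjusted p = 0.0012 by limma). After median-of-ratios scaling, described below, 4 of the 4 tested were called higher, against 26.9% of all tested genes. The summed level of these 6 markers was 1040 to 1460 FPKM in mimic samples and 680 to 811 FPKM in NC samples, and its part in the changes of the transferase genes was not tested. Of 5 markers of mesenchyme, 3 were under 1 FPKM in every sample. VIM was at 405.0, 381.4 and 374.5 FPKM in mimic samples 1, 2 and 3 and at 340.1, 394.5 and 408.3 FPKM in NC samples 1, 2 and 3. COL1A1 averaged 7.99 FPKM in mimic samples and 17.4 FPKM in NC samples (log2 fold change -1.09, adjusted p = 0.000606 by limma). The summed level of 3 blood markers did not exceed 0.0357 FPKM in any sample. The hepatocyte transferase genes GSTA1 and GSTA2 were likewise listed at or near 0, with 0 FPKM for GSTA2 in every sample and 0 FPKM for GSTA1 in all but mimic sample 1, where it was at 0.0315 FPKM. The cells are therefore called by their label here, and nothing below describes hepatocytes.

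Sample 3 of each group stood apart by its mitochondrial transcripts, which made up 14.6%, 24.3% and 38.9% of summed FPKM in mimic samples 1, 2 and 3, against 16.9%, 18.4% and 32.8% in NC samples 1, 2 and 3. FPKM are relative, so a larger mitochondrial share lowers other genes. Read numbers are not in the tables. A pile-up of FPKM times gene length implied about 31000000, 25200000 and 28100000 fragments in mimic samples 1, 2 and 3. For NC samples 1, 2 and 3 it implied 19300000, 21100000 and 17000000. Only 9.1% to 12.2% of low values were whole multiples of the implied value of 1 fragment. These fragment numbers are therefore not established, and depth cannot be compared between the groups. Of the 14439 genes that averaged 1 FPKM or more, 51.6% passed limma's test at an adjusted p of 0.05, 12.0% higher and 39.6% lower in mimic samples, and the median log2 fold change was -0.29. After median-of-ratios scaling, which sets the typical gene to no change, the median was 0.01 and 26.9% of genes were higher and 27.4% lower. Changes in the family are therefore given on both scales where they differ. In bulk RNA, fewer cells that express a gene and less RNA per cell cannot be told apart.

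Mature miR-27a-3p, the RNA that the mimics imitate, is shown with its seed, bases 2 to 8, in capitals (RefSeq, GRCh38.p14, chr19:13836447-13836467, minus strand); the sequence of the transfected duplex itself was not analysed here.
miR-27a-3p: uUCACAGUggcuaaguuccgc
Its seed pairs with ACTGTGA, which was looked for in every gene's longest 3' UTR in GENCODE 29 together with the 8-base word ACTGTGAA and the 7-base word CTGTGAA. None of the 10 genes held the 8-base word, which was also rare, in 6.5% of the 11512 tested genes with an annotated 3' UTR. A 7-base word was held by 3 of 10, or 30.0%, against 28.7% of those 11512 genes that held any of the words. The 3 sites all lie in genes of the mu class and are shown with up to 10 flanking bases, the match in capitals.
GSTM2: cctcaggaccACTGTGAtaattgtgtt
GSTM3: actggagtccCTGTGAAgactgggtga
GSTM4: aggtgcctccCTGTGAAacaggagaat
The GSTM2 site begins at base 244 of a 973-base 3' UTR (chr1:109708820-109708826, GRCh38, plus strand), the GSTM3 site at base 320 of 3139 (chr1:109736745-109736751, minus strand) and the GSTM4 site at base 1374 of 2467 (chr1:109660649-109660655, plus strand). The GSTM2 site also lies within the annotated interval of GSTM1 (109687814 to 109709039). It was found in the longest 3' UTR of GSTM2, and whether GSTM2 transcripts of these cells reach it was not tested. As described below, the gene with the GSTM2 site was lower in mimic samples, while the genes with the GSTM3 and GSTM4 sites were higher. The 3' UTRs of GSTP1 and GSTO1 are short, at 79 and 54 bases. A match is a stretch of letters and was not tested as a binding site.

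Of the 10 genes, 9 passed the filter of 1 FPKM and were tested, while GSTM1 stayed below it. GSTP1, GSTM3, GSTM4 and MGST1 rose in mimic samples and GSTM2 fell, so 4 of 9 were called higher and 1 lower, 5 in all, against a background of 12.0% higher and 39.6% lower. That 5 of 9 changed is close to the 51.6% of all genes that did. Their median log2 fold change was 0.35, against -0.29 over all tested genes. After median-of-ratios scaling 6 of 9 were called higher and 1 lower, against a background of 26.9% and 27.4%, with a median of 0.68 against 0.01. All mimic samples lay above all NC samples in 6 of 10 genes and below them in 1, where 16.2% and 44.3% of all tested genes did so. The 10 genes were chosen with earlier results of these data known, so these counts and medians describe this set only. The 7 tested genes of a list of other transferases, given below, had a median log2 fold change of -0.31.

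**Figure D1:**
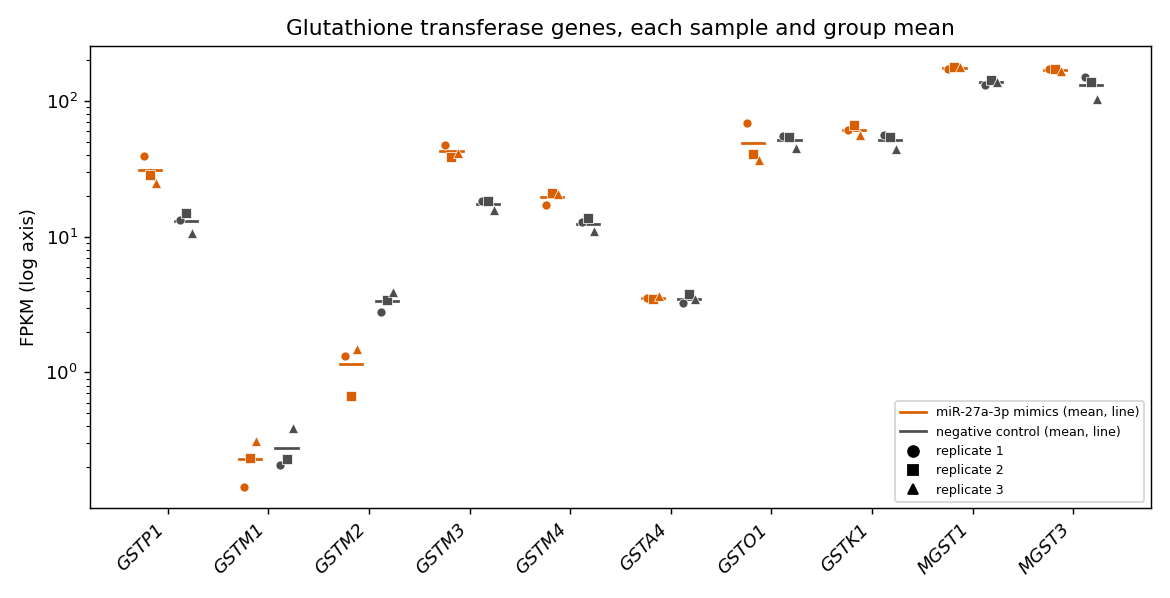
FPKM of the 10 genes on a log axis, with 1 point per sample (3 miR-27a-3p mimic samples in orange, left; 3 negative control samples in grey, right) and a line at each group mean. GSTP1 and GSTM3 lie 2.38 and 2.44 times higher on average in mimic samples with no overlap, GSTM2 lies lower, and GSTA4 and GSTO1 overlap.

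GSTP1 is the only pi class gene and encodes a cytosolic enzyme that conjugates many electrophiles and also binds the stress kinase JNK. The gene lies on chromosome 11 (67583595 to 67586660, hg38, plus strand). It was at 39.35, 28.52 and 24.99 FPKM in mimic samples 1, 2 and 3, against 13.37, 15.05 and 10.59 FPKM in NC samples 1, 2 and 3. The lowest mimic sample was well above the highest NC sample, and sample 3 was the lowest of each group. The means were 31.0 ± 7.48 FPKM in mimic samples and 13.0 ± 2.25 FPKM in NC samples (SD, n = 3 each). The log2 fold change, on the log2(FPKM + 0.5) scale, was 1.21 with a standard error (SE) of 0.20 (adjusted p = 0.00154 by limma). GSTP1 was called in each of the 16 alternatives run, with log2 fold changes of 1.02 to 1.52.

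The promoter of GSTP1, from 250 bases before its RefSeq start to 50 after it (GRCh38.p14, chr11:67583562-67583861, plus strand), is shown because GSTP1 is the one family member whose promoter held both motifs searched. The capitals mark a match to TGACNNNGC, the core of the antioxidant response element bound by NFE2L2 with a small MAF protein, which overlaps a match to TGANTCA, the AP-1 site bound by FOS and JUN dimers.
GSTP1: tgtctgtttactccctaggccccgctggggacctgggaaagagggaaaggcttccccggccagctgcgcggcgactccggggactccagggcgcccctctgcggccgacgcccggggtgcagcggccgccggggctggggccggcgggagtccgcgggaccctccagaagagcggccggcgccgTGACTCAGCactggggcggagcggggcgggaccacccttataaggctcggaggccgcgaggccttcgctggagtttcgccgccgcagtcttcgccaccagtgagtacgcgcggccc
The match starts 66 bases before the transcript start. On both strands, 13.3% of 35116 RefSeq promoters of this length held TGACNNNGC and 7.7% held TGANTCA. In the family, TGACNNNGC was found in 5 of 12 promoters, the count that compares with that share. These belong to 5 of 10 genes, namely GSTP1, GSTM1, GSTA4, GSTO1 and, in 1 of its 3 promoters, MGST1. TGANTCA was found for GSTP1 alone of the 10. Of those 5 genes, GSTP1 and MGST1 were called higher, GSTA4 and GSTO1 did not pass the test and GSTM1 was not tested. These are matches of letters in 300 bases and were not tested as binding sites.

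The mu class sits in 1 cluster on chromosome 1, in the order GSTM4, GSTM2, GSTM1, GSTM5 and GSTM3, the last on the opposite strand. Mu class enzymes are cytosolic and conjugate epoxides and other electrophiles. GSTM3 (109733932 to 109741038, hg38, minus strand) was at 47.54, 38.78 and 41.62 FPKM in mimic samples 1, 2 and 3, against 18.27, 18.32 and 15.80 FPKM in NC samples 1, 2 and 3. The lowest mimic sample was above 2 times the highest NC sample. Means were 42.6 ± 4.47 FPKM in mimic samples and 17.5 ± 1.44 FPKM in NC samples (SD, n = 3 each), and the log2 fold change was 1.26 (SE 0.14, adjusted p = 0.000203 by limma). It was called in each of the 16 alternatives, from 1.18 to 1.58. GSTM3 had the smallest p in the family.

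The promoter of GSTM3 (GRCh38.p14, chr1:109740989-109741288, minus strand, 250 bases before and 50 after the start) is given for comparison with GSTP1, since these genes had the largest rises.
GSTM3: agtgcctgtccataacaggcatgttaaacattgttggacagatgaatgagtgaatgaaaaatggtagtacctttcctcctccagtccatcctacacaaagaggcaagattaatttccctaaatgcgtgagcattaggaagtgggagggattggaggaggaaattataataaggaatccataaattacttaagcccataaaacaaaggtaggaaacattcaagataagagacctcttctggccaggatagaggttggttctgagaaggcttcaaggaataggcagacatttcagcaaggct
It held neither motif, with 1 CpG and 41.3% G and C, against 36 CpGs and 74.0% in the GSTP1 promoter.

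GSTM4 (109656081 to 109674836, plus strand) was at 17.24, 20.88 and 20.70 FPKM in mimic samples 1, 2 and 3, against 12.75, 13.76 and 10.96 FPKM in NC samples 1, 2 and 3. The groups did not overlap, and the gap was narrower than for GSTM3. The log2 fold change was 0.63 (SE 0.14, adjusted p = 0.00708 by limma). After median-of-ratios scaling it was 0.95 (adjusted p = 0.00136 by limma). With sample 3 of both groups left out it was 0.50 (adjusted p = 0.0536).

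GSTM2 (109668022 to 109709551, plus strand) went the other way. It was at 1.326, 0.6669 and 1.476 FPKM in mimic samples 1, 2 and 3, against 2.801, 3.391 and 3.921 FPKM in NC samples 1, 2 and 3. Every mimic sample was below every NC sample, at a low level in both groups. The log2 fold change was -1.25 (SE 0.23, adjusted p = 0.00241 by limma), and the scale with a pseudocount of 0.5 understates the change of so low a gene. After median-of-ratios scaling it was -0.99 (adjusted p = 0.0148 by limma). After quantile normalization it was -0.58 (adjusted p = 0.0918).

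GSTM1, a gene that many people lack through a common deletion, was the lowest of the 10. It was listed at 0.1431, 0.2321 and 0.3111 FPKM in mimic samples 1, 2 and 3, against 0.2079, 0.2291 and 0.3879 FPKM in NC samples 1, 2 and 3, with overlapping groups and no test. GSTM5, the remaining gene of the cluster, was listed at 0.5468, 0 and 0 FPKM in mimic samples 1, 2 and 3 and at 0.1768, 0 and 0 FPKM in NC samples 1, 2 and 3.

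Single values in this cluster are uncertain, because its genes are close paralogs and their annotated intervals overlap. GSTM2 shares 6815 bases with GSTM4 and contains the whole 21226-base interval of GSTM1, all on the same strand, and GSTM3 lies within the interval of GSTM5 and of an antisense gene, AL158847.1. That antisense gene was at 0.426, 0.812 and 0.454 FPKM in mimic samples 1, 2 and 3 and at 0.351, 0.403 and 0.412 FPKM in NC samples 1, 2 and 3, far below GSTM3. Summed over its 5 genes, the cluster was at 66.8, 60.6 and 64.1 FPKM in mimic samples 1, 2 and 3, against 34.2, 35.7 and 31.1 FPKM in NC samples 1, 2 and 3, a ratio of means of 1.90. The make-up of the cluster also differed, with GSTM3 giving 64.0% to 71.2% of the sum in mimic samples and 50.9% to 53.4% in NC samples, and GSTM2 giving 1.10% to 2.30% in mimic samples and 8.19% to 12.6% in NC samples. Each of these ranges was apart from its counterpart, and no p is given for them.

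**Figure D2:**
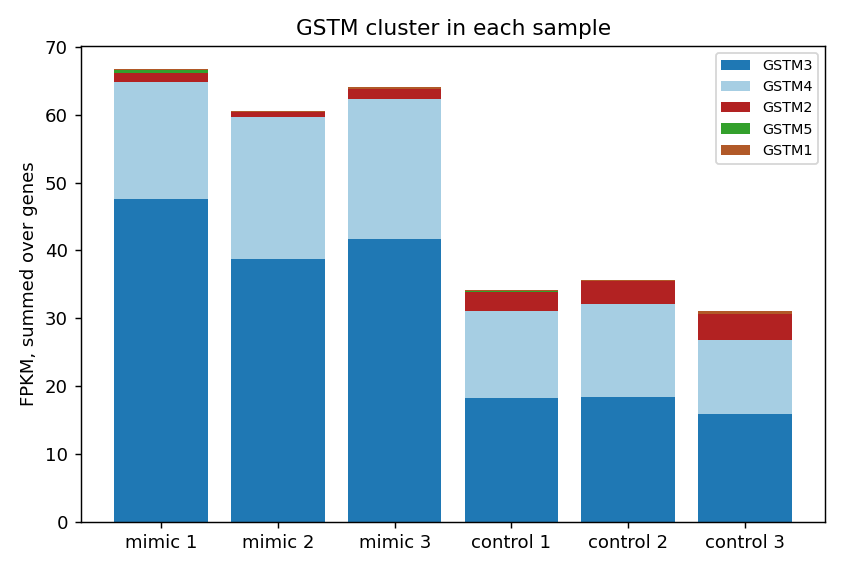
FPKM of the 5 GSTM genes stacked in each sample, mimic samples on the left and negative control samples on the right. The stacks reach 60.6 to 66.8 FPKM in mimic samples and 31.1 to 35.7 FPKM in NC samples, with a larger GSTM3 part and a smaller GSTM2 part in mimic samples.

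Among the genes chosen by name, those of the membrane-bound enzymes MGST1 and MGST3 gave the most abundant transcripts. This does not extend to MGST2, which is on the list of other transferases given below. MGST2 averaged 32.9 FPKM in mimic samples and 41.9 FPKM in NC samples, with overlapping groups. Its log2 fold change of -0.34 did not pass the test (adjusted p = 0.18 by limma). MGST1 protects membranes of the endoplasmic reticulum and mitochondria from lipid peroxides. MGST1, on chromosome 12 (16347142 to 16609259, hg38, plus strand), was at 171.5, 178.8 and 178.5 FPKM in mimic samples 1, 2 and 3, against 131.9, 144.1 and 138.1 FPKM in NC samples 1, 2 and 3. All mimic samples were higher, by a ratio of means of 1.28, and the spread within each group was small. The log2 fold change was 0.35 (SE 0.13, adjusted p = 0.0455 by limma), just within the threshold. Adjusted p was 0.168 without NC sample 1, 0.0995 without NC sample 2, 0.0953 without NC sample 3, 0.115 without mimic sample 2 and 0.0783 without mimic sample 3. It was 0.106 after quantile normalization and 0.00269 with the median-of-ratios scale, at a log2 fold change of 0.68.

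MGST3, on chromosome 1 outside the mu cluster (165630861 to 165661796, plus strand), encodes a second microsomal enzyme with peroxidase activity. It was at 172.1, 173.5 and 167.4 FPKM in mimic samples 1, 2 and 3, against 150.0, 138.7 and 104.4 FPKM in NC samples 1, 2 and 3. The groups did not overlap, and the NC samples varied far more than the mimic samples, with sample 3 lowest in both. The log2 fold change was 0.40 (95% interval 0.02 to 0.78) and did not pass the correction (adjusted p = 0.0733 by limma). It passed when mitochondrial genes were removed before scaling (0.42, adjusted p = 0.0288) and after median-of-ratios scaling (0.72, adjusted p = 0.00332). Without NC sample 3 the log2 fold change was 0.25 (adjusted p = 0.224).

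GSTK1 is the kappa class enzyme of mitochondria and peroxisomes. It was at 61.81, 66.56 and 56.60 FPKM in mimic samples 1, 2 and 3, against 56.04, 54.36 and 44.70 FPKM in NC samples 1, 2 and 3. The lowest mimic sample was only just above the highest NC sample, and the log2 fold change of 0.26 (95% interval -0.07 to 0.58) did not pass the test (adjusted p = 0.167 by limma). After median-of-ratios scaling it was 0.58 (adjusted p = 0.00306).

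GSTO1 encodes the omega class enzyme that reduces dehydroascorbate and forms mixed disulfides. It was at 69.08, 40.81 and 36.76 FPKM in mimic samples 1, 2 and 3, against 55.72, 54.69 and 45.19 FPKM in NC samples 1, 2 and 3. Mimic sample 1 was the highest of all 6 samples and the other mimic samples were the lowest, so the groups overlapped and mimic samples spread widely. The log2 fold change was -0.13 (95% interval -0.67 to 0.40, adjusted p = 0.658 by limma). Without mimic sample 1 it was -0.41 (adjusted p = 0.048), without mimic sample 3 it was 0.04 (adjusted p = 0.902), and after median-of-ratios scaling it was 0.19 (adjusted p = 0.47). No direction can be given for GSTO1. Its neighbour on chromosome 10, GSTO2, which is not among the 10 genes, was at 4.667, 4.050 and 2.416 FPKM in mimic samples 1, 2 and 3, against 8.566, 7.900 and 8.415 FPKM in NC samples 1, 2 and 3, and fell (-1.10, SE 0.21, adjusted p = 0.00311 by limma).

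GSTA4, the alpha class enzyme that conjugates the lipid peroxidation product hydroxynonenal, had the smallest fold change of the 9 tested genes on the deposited scale. It was at 3.517, 3.482 and 3.636 FPKM in mimic samples 1, 2 and 3, against 3.225, 3.790 and 3.450 FPKM in NC samples 1, 2 and 3. The mimic samples lay within the range of the NC samples, and the log2 fold change was 0.02 (95% interval -0.28 to 0.33, adjusted p = 0.901 by limma). After quantile normalization it was 0.57 (adjusted p = 0.0111), and after median-of-ratios scaling 0.31 (adjusted p = 0.0823), so its place depends on the scale.

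**Figure D3:**
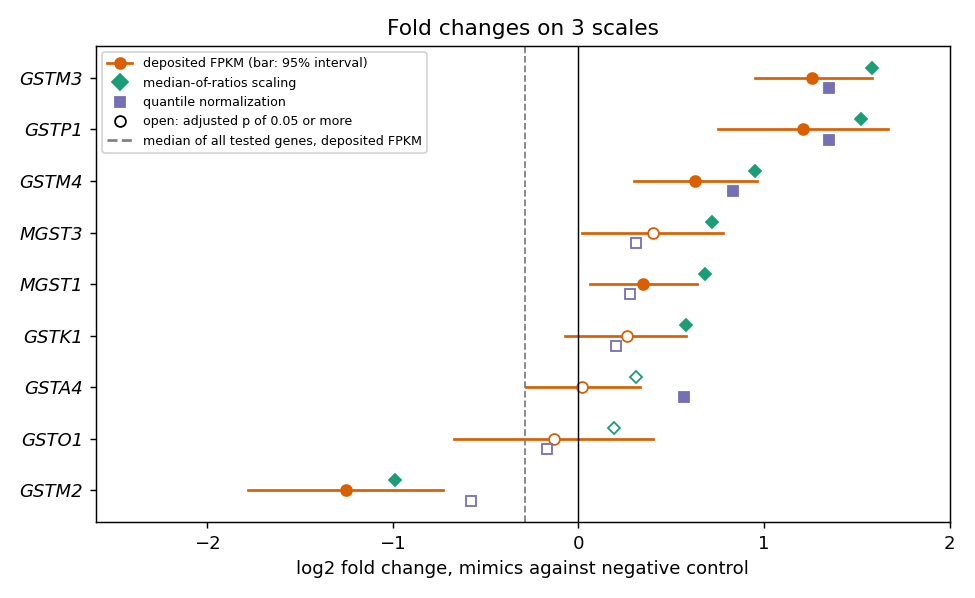
Log2 fold change of mimic samples against negative control samples for the 9 tested genes on 3 scales, with 95% intervals for deposited FPKM and open symbols where adjusted p was 0.05 or more. GSTM3, GSTP1 and GSTM4 are filled on the right on all 3 scales, GSTM2 is filled on the left on 2 of 3, and the dashed line marks the median of all tested genes at -0.29.

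FPKM are per length, so levels are set beside each other here, although the annotation behind the gene lengths is not given. Single values in the GSTM cluster are uncertain, as described above. By mean FPKM, the order in mimic samples was MGST1, MGST3, GSTK1, GSTO1, GSTM3, GSTP1, GSTM4, GSTA4, GSTM2 and GSTM1. In NC samples the order was MGST1, MGST3, GSTO1, GSTK1, GSTM3, GSTP1, GSTM4, GSTA4, GSTM2 and GSTM1. The ranges of MGST1 and MGST3, and of GSTK1 and GSTO1, overlapped in both groups, so neither pair has a settled order. In mimic samples GSTO1 also overlapped GSTM3, and GSTM3 overlapped GSTP1. In NC samples GSTP1 overlapped GSTM4 and GSTA4 overlapped GSTM2. All other neighbours had ranges that were apart.

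Summed FPKM of the 10 genes was 583.7, 552.2 and 532.0 in mimic samples 1, 2 and 3, against 444.2, 446.4 and 377.4 in NC samples 1, 2 and 3. MGST1 and MGST3 together gave 58.9% to 65.0% of that sum in mimic samples and 63.4% to 64.2% in NC samples, which overlap. GSTP1 gave 4.70% to 6.74% in mimic samples and 2.81% to 3.37% in NC samples. Within a sample, GSTP1 was 0.57, 0.699 and 0.68 times GSTO1 in mimic samples 1, 2 and 3, against 0.24, 0.275 and 0.234 times in NC samples 1, 2 and 3. Such a ratio is free of the scaling of the library, and mimic sample 1, the highest for both genes, had the lowest ratio of the mimic samples.

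Of a list of 15 other transferase genes, 14 had a row in the table and 7 were tested, and the other 7 were under 1 FPKM in every sample. Of the 7 tested, 0 were called higher and 2 lower (limma; 0 higher and 2 lower at an unadjusted p under 0.05), near the 12.0% and 39.6% of all tested genes. These were GSTO2, given above, and the theta class gene GSTT2, at 6.991, 6.103 and 3.937 FPKM in mimic samples 1, 2 and 3, against 9.453, 9.069 and 8.278 FPKM in NC samples 1, 2 and 3 (-0.64, SE 0.20, adjusted p = 0.0264 by limma). GSTT2 has a near-identical copy, GSTT2B, which did not pass the test (-0.17, adjusted p = 0.296 by limma), so reads may be split between the copies. The GSTT2 call was lost without NC sample 1 (adjusted p = 0.0752), without NC sample 2 (0.0655) and on the median-of-ratios scale (0.114). On that scale 1 gene of the list was higher and 1 lower. GSTT1 was not analysed here.

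Genes that supply glutathione were higher in 3 of 4 cases and lower in 0 (limma; also 0 lower at an unadjusted p under 0.05), against 12.0% and 39.6% of all tested genes. After median-of-ratios scaling 4 of 4 were higher, against 26.9% of all tested genes. GCLM, the modifier subunit of the enzyme that starts glutathione synthesis, was at 14.58, 15.04 and 10.76 FPKM in mimic samples 1, 2 and 3, against 8.248, 9.105 and 7.147 FPKM in NC samples 1, 2 and 3 (0.68, SE 0.17, adjusted p = 0.00989 by limma). GSS, the synthetase of the final step, rose by 0.68 (SE 0.16) and GSR, which reduces oxidized glutathione, by 0.63 (SE 0.15). GCLC, the catalytic partner of GCLM, averaged 14.3 ± 1.74 FPKM in mimic samples and 14.0 ± 0.746 FPKM in NC samples (SD, n = 3 each; adjusted p = 0.862 by limma). On the median-of-ratios scale it passed the test (0.35, adjusted p = 0.0328 by limma).

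Of 7 genes for export of glutathione conjugates and related compounds, 1 was higher and 4 were lower, against 12.0% and 39.6% of all tested genes. After median-of-ratios scaling 1 was higher and 1 lower, against 26.9% and 27.4%. ABCC1, an efflux pump for glutathione conjugates, was at 13.69, 14.86 and 13.08 FPKM in mimic samples 1, 2 and 3, against 10.09, 9.435 and 8.25 FPKM in NC samples 1, 2 and 3 (0.56, SE 0.13, adjusted p = 0.00808 by limma). ABCC3, an organic anion pump, fell by 1.45 on the log2 scale (SE 0.13). ABCC5 (-0.47, adjusted p = 0.0171) and ABCC2, the pump of the bile canaliculus (-0.46, adjusted p = 0.0203), were not called after median-of-ratios scaling (adjusted p = 0.225 and 0.253). The ABCC5 call was also lost without NC sample 1 or 2 (0.0741 and 0.0526), and the ABCC2 call without mimic sample 3 (0.0538) or NC sample 1 or 2 (0.0902 and 0.0666).

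Of 17 genes that break down conjugates or glutathione, 9 were tested, with 1 higher and 4 lower, close to the 12.0% and 39.6% of all tested genes. After median-of-ratios scaling 2 were higher and 4 lower, against 26.9% and 27.4%. LAP3, a leucine aminopeptidase, rose (0.53, SE 0.15, adjusted p = 0.0196 by limma; 0.0665 without NC sample 3). GGT7, named as a member of the glutamyltransferase family, averaged 14.5 ± 0.71 FPKM in mimic samples and 27.9 ± 1.34 FPKM in NC samples (SD, n = 3 each; -0.92, adjusted p = 0.000466 by limma). The dipeptidase gene CNDP2 fell by 0.86 on the log2 scale and CHAC1, which degrades glutathione in stressed cells, by 1.37.

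Among 3 genes whose products bind or are served by GSTP1, 1 was higher and 1 lower, against 12.0% and 39.6% of all tested genes. PRDX6, a peroxidase that GSTP1 glutathionylates during its catalytic cycle, was at 328.0, 254.5 and 218.2 FPKM in mimic samples 1, 2 and 3, against 179.5, 179.6 and 160.0 FPKM in NC samples 1, 2 and 3 (0.61, SE 0.18, adjusted p = 0.0208 by limma). Like GSTP1, it was highest in mimic sample 1, and its call was lost without mimic sample 2 (0.0565) or NC sample 1 (0.0513) or 3 (0.0643). MAPK8, which encodes the kinase JNK1 that GSTP1 binds, was at 3.580, 3.857 and 3.102 FPKM in mimic samples 1, 2 and 3, against 9.093, 7.701 and 9.694 FPKM in NC samples 1, 2 and 3 (-1.22, SE 0.15, adjusted p = 0.000331 by limma).

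Of 4 regulators of the antioxidant response element, 0 were higher and 3 were lower (limma; 0 higher at an unadjusted p under 0.05), against 12.0% and 39.6% of all tested genes. After median-of-ratios scaling 1 was higher and 2 lower, against 26.9% and 27.4%. The higher gene was KEAP1 (0.62, adjusted p = 0.0335 by limma), which did not pass the test on deposited FPKM (0.31, adjusted p = 0.303). BACH1, a repressor that occupies these elements, was at 7.090, 6.641 and 5.179 FPKM in mimic samples 1, 2 and 3, against 22.39, 20.28 and 19.47 FPKM in NC samples 1, 2 and 3 (-1.65, SE 0.15, adjusted p = 0.000102 by limma). NFE2L2, the activator, was at 26.63, 14.94 and 28.35 FPKM in mimic samples 1, 2 and 3, against 45.43, 48.64 and 39.77 FPKM in NC samples 1, 2 and 3 (-0.97, SE 0.24, adjusted p = 0.00969 by limma; -0.65 and 0.0668 after median-of-ratios scaling). MAFG, a small MAF partner of both, fell by 1.21 (SE 0.33), a call lost without NC sample 1 (adjusted p = 0.0617) or 2 (0.0513). These are transcript levels, and protein was not measured.

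**Figure D4:**
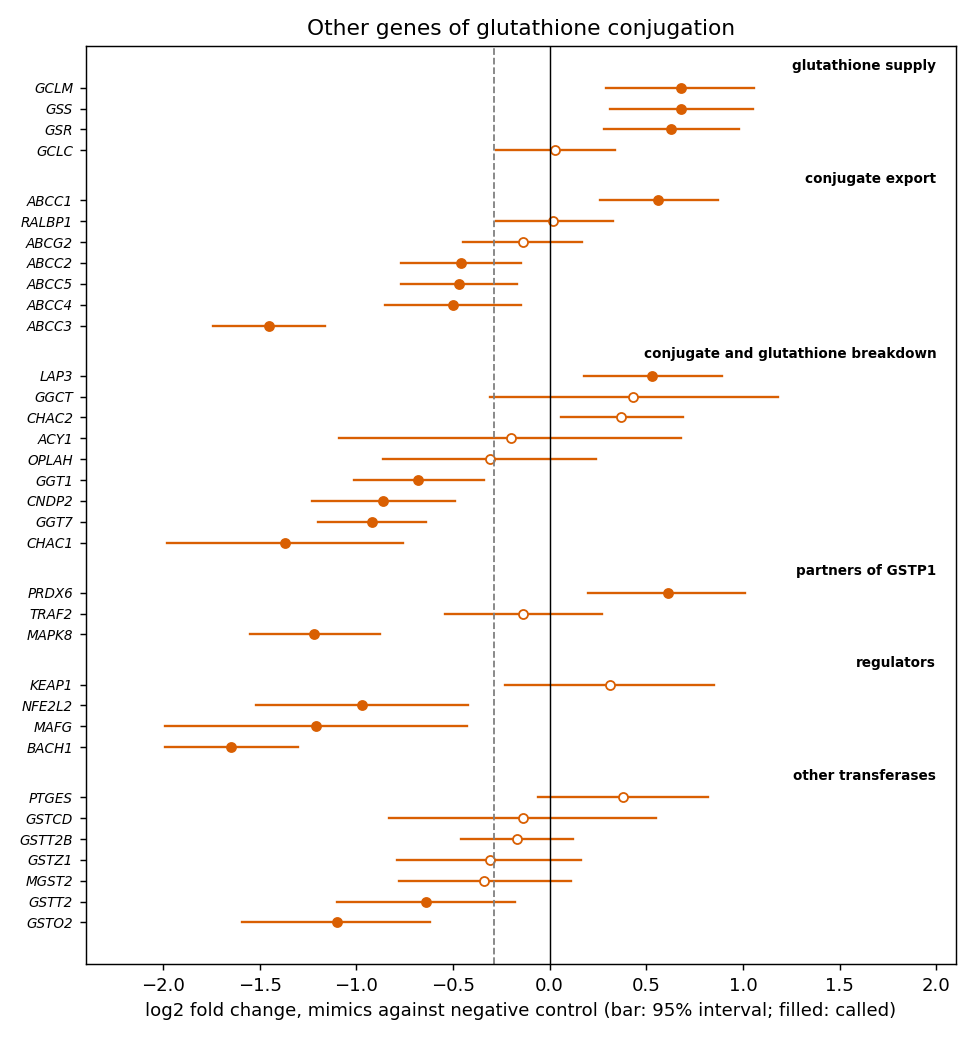
Log2 fold change of mimic samples against negative control samples, with 95% intervals, for the tested genes of 6 lists around glutathione conjugation, filled where adjusted p was under 0.05. The supply genes GCLM, GSS and GSR are filled to the right of 0 and BACH1, ABCC3 and CHAC1 to the left, with the dashed line at the median of all tested genes, -0.29.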

How the data were processed

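FPKM of 6 RNA libraries were deposited by the authors for 58174 genes, per the file headers. FastQC, HISAT2 and build hg38 are named by the submitters' processing notes, while the tool behind FPKM, the annotation release and the strand setting are not given in the sources at hand. The 6 single-sample tables held the same values as the series table. Only 9.1% to 12.2% of low values were whole multiples (within 1%) of the implied value of 1 fragment, so reads were not recovered and no counting interval is given. The 14439 genes averaging 1 FPKM or more were tested with limma-trend (limma 3.58.1, R 4.3.3), with robust moderation, on log2(FPKM + 0.5), with Benjamini-Hochberg adjustment over all of them at 0.05. The code of this step was run on simulated data with independent noise and few changed genes, both up and down. In the data themselves 51.6% of tested genes were called, so that run does not give their error rate. Alternatives changed the pseudocount, filter, scaling, moderation, block and samples. Seed matches used GENCODE 29 annotation and transcripts (GRCh38), and promoters and the microRNA came from RefSeq (GRCh38.p14). All 10 genes are named, and other lists name up to 3 called genes with the smallest p per direction. The 10 genes and the lists were chosen with earlier results of these data known.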

Additional observations from a re-analysis of the deposited data

How the results depend on the processing

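GSTP1 and GSTM3 were called higher under all 16 alternatives, and no call among the 10 genes changed with the pseudocount or the moderation. Over all genes, 8755 were lower with no filter and 2916 at a mean of 5 FPKM, against 5718; 3889 were higher after median-of-ratios scaling, and 3592 higher and 3289 lower after quantile normalization, against 1735 and 5718. The filter at 5 FPKM (which leaves GSTM2 out) and quantile normalization each left 0 of the 10 genes called lower by limma (also 0 at an unadjusted p under 0.05 in both), and with sample 3 of both groups left out 2 were called higher. After median-of-ratios scaling log2 fold changes were 0.19 for GSTO1, 0.58 for GSTK1 and 0.72 for MGST3, and the summed GSTM cluster averaged 71.3 in mimic samples and 29.9 in NC samples. After quantile normalization they were -0.58 for GSTM2, 0.57 for GSTA4 and 0.28 for MGST1. MGST3 was called when mitochondrial genes were removed before scaling (0.42). With sample 3 of both groups left out GSTM4 was at 0.50 and MGST1 at 0.34, neither called. Leaving out 1 sample at a time gave 1256 to 1822 genes higher and 4695 to 5732 lower, 3 to 4 of the 10 genes higher and 1 to 2 lower, and log2 fold changes of 0.32 to 0.38 for MGST1, -0.41 to 0.04 for GSTO1 and -0.03 to 0.08 for GSTA4. The cause of these changes was not tested.

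Correlations of deviations between same-numbered samples were 0.177, -0.047 and 0.223 for numbers 1, 2 and 3, across 14439 genes. Differently numbered samples gave -0.281 (mimic sample 1 with NC sample 3) to 0.126 (mimic sample 1 with NC sample 2). These values do not settle whether the samples were paired, so the main fit used no block. With the replicate number as a block, 2117 genes were higher and 5994 lower, MGST3 was called (0.40, adjusted p = 0.0461) and no other call among the 10 genes changed. GSTM1, GSTM2 and GSTM5 were low, at 0 to 3.921 FPKM, and how far depth limits their values was not tested.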
